A study of Rattus norvegicus with 10 samples.

Results

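The genes described here are 10 genes of the circadian clock, namely Per1, Per2, Per3, Cry1, Cry2, Clock, Dbp, Tef, Nr1d1 and Nr1d2, measured in the lumbar spinal cord of morphine-tolerant and saline-injected rats. The rule lists them by name and uses no measured value, and their probes were found through the RefSeq mRNA accession that each probe carries. A probe was found for 9 of the 10 genes, out of 13888 named mRNA genes on the array, and Nr1d2 was not analysed here. Nr1d1 has 2 probes and the other genes 1 each, and each probe is 1 spot per array. All 10 probes passed the filter on dim RNAs described below, and none was saturated on any array. The comparison asked whether the tissue of both groups was in a like state of the daily clock when it was taken.

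The morphine tolerance (MT) group consisted of 5 male Sprague Dawley rats (rats 1 to 5) weighing 240 to 260 g, which received 10 μg of morphine in 10 μl by intrathecal injection, into the fluid around the spinal cord, 2 times a day for 7 days. The normal saline (NS) group consisted of 5 rats of the same strain, sex and weight (rats 6 to 10), which received 10 μl of saline on the same schedule. By the methods of the study the rats were adult and kept on a light-dark cycle, injections were given in the morning and late in the afternoon, and the lumbar enlargement was taken under pentobarbital after a morning injection on the day after the last treatment day. The methods give the same morning window for the injections of both groups and place the anaesthesia an hour after the injection, so the scheduled time of day was the same for MT and NS rats. The age in days and the exact time for each rat are not given in the sources used here, and each rat was sampled 1 time, so a value cannot be read as a clock hour.

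The circadian clock is a feedback loop of transcription that runs in nearly every cell with a period of about a day. CLOCK, or its relative NPAS2, pairs with BMAL1 and switches on genes that carry an E-box in their promoters, including the Per and Cry genes, whose proteins return to the nucleus and silence the pair. In another loop REV-ERBα, the product of Nr1d1, represses Bmal1 through ROR elements, and the output factors DBP and TEF act through D-boxes. In the spinal cord, as in other tissues, the local clocks are set by signals that include glucocorticoids and feeding, and the E-box genes and Bmal1 peak at opposite times of day.

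RNA of each rat was hybridized to 1 one-colour array, and values are quantile-normalized log2 intensities. The share of spots well above background was 81.1% to 83.9% in the MT group and 58.6% to 79.6% in the NS group. Arrays that share a scan time form 3 scan batches: batch 1 holds MT rats 1, 3, 4 and 5, batch 2 holds MT rat 2 with NS rats 6, 7 and 10, and batch 3 holds NS rats 8 and 9, which had the lowest shares of spots above background (63.8% and 58.6%). Only batch 2 holds both groups, so each member's difference is also given within it, where it rests on 1 MT rat, and without batch 3. The defining markers of spinal cord cells were above background on all 10 arrays, namely the 7 neuronal, 8 oligodendrocyte, 6 astrocyte and 7 microglial markers with a probe, and so was the lumbar Hox gene Hoxd10. Of 5 listed lumbar Hox genes only Hoxd10 had a probe. Its highest rat exceeded its lowest, MT rat 3, by 3.61-fold in linear terms, so detection does not show that the tissue was uniform. In RNA of whole tissue, fewer cells of a type and less RNA per cell cannot be told apart.

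The clock motifs were looked for in the promoter windows of these genes, defined as the 250 bases before each annotated start in RefSeq (GRCr8). Of the 33469 windows in all, 5.59% held the E-box CACGTG, which reads the same on both strands, 4.07% the E-box variant CACGTT, 2.04% the D-box TTANGTAA and 2.26% the ROR element TAGGTCA, each counted on both strands. There were 11 windows for 9 of the 10 genes, and Cry1 has no entry. The E-box was found in 2 of them, at 191 bases before a start of Nr1d1 and at 198 bases before the start of Tef. The variant was found in 3, at 212 bases before the start of Cry2, 62 before that of Per2 and 174 before the other start of Nr1d1, and the D-box was found in that of Per2 at 192 bases. The cAMP response element TGACGTCA (1.59% of all windows) and the palindromic glucocorticoid response element (0.373%), were found in none of the 11. No motif was found in the windows of Per1 and Dbp, which says only that these letters are not in these 250 bases. The windows of Ciart, which has 3 E-boxes at 93, 35 and 21 bases before its start, and of Bmal1, with a ROR element at 16 bases, are shown beside those of Nr1d1, Tef and Per2 because they carry the motif of each limb of the loop. Capitals mark the motif, each line runs 5′ to 3′ on the strand of the gene and a match is a description and not a site of binding. The windows are chr10:84229455-84229704 on the minus strand for Nr1d1, chr7:115206577-115206826 on the plus strand for Tef, chr2:186112247-186112496 on the minus strand for Ciart, chr9:99496994-99497243 on the minus strand for Per2 and chr1:176766078-176766327 on the plus strand for Bmal1.
Nr1d1: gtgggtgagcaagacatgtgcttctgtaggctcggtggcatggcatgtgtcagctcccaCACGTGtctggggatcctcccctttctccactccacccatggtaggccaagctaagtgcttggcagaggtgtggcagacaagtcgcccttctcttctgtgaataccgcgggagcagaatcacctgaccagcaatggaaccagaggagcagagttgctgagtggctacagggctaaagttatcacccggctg
Tef: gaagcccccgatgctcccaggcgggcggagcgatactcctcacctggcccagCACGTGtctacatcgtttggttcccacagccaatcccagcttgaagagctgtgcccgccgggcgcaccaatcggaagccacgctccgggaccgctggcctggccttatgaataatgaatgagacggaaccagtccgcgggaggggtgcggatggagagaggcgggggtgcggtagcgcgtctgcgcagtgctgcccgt
Ciart: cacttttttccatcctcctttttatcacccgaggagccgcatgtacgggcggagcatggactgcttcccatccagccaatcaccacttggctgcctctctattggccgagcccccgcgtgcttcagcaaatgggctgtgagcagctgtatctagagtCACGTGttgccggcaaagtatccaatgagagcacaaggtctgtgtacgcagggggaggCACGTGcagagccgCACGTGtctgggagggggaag
Per2: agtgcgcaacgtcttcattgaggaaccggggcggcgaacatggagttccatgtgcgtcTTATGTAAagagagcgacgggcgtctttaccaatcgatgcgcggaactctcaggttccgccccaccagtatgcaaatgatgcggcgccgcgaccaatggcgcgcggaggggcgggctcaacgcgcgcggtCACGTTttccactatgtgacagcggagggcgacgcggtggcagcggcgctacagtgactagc
Bmal1: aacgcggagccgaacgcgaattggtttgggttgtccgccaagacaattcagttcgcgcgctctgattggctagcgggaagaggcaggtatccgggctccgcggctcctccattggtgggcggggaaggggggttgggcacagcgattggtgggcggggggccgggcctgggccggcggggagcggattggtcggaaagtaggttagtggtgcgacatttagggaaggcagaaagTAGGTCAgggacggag

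Of the 9 listed clock genes measured, Per1 and Dbp had the widest group differences. Both had lower means in MT than in NS rats, while Cry1 had a higher mean in MT. The MT minus NS difference was -0.71 for Per1, -0.35 for Dbp and 0.17 for Cry1 on the log2 scale, and for the other 7 probes it lay between -0.16 and 0.12. No clock gene passed an adjusted p of 0.05 by limma with Benjamini-Hochberg adjustment over all 20283 RNAs tested, of which 0.197% passed. Per1 alone of the 9 genes met the criteria of the study, read as a fold of over 1.5 on the linear scale together with P below 0.05 before adjustment, which 2.73% of all RNAs met (0.996% as lower in MT and 1.74% as higher). At an unadjusted P below 0.05 alone, 2 probes (Per1 and Dbp) were lower and 1 (Cry1) was higher, beside 9.54% and 6.84% of all RNAs. Without batch 3 none of these 3 had a P below 0.05 by limma and Per3 did, as lower in MT. With the scan batch as a fixed block only Per1 had one, and with it as a random block Per1 and Dbp did. None of the 10 probes separated the groups completely, as 5.6% of all RNAs did (3.29% as lower in MT and 2.31% as higher). The median difference of the 10 probes was -0.07, with 6 probes below 0 and 4 above, and the median of all RNAs was -0.0013. There is 1 array per rat, so the spread in the tests is that between rats together with that between arrays and scan batches.

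**Figure D1:**
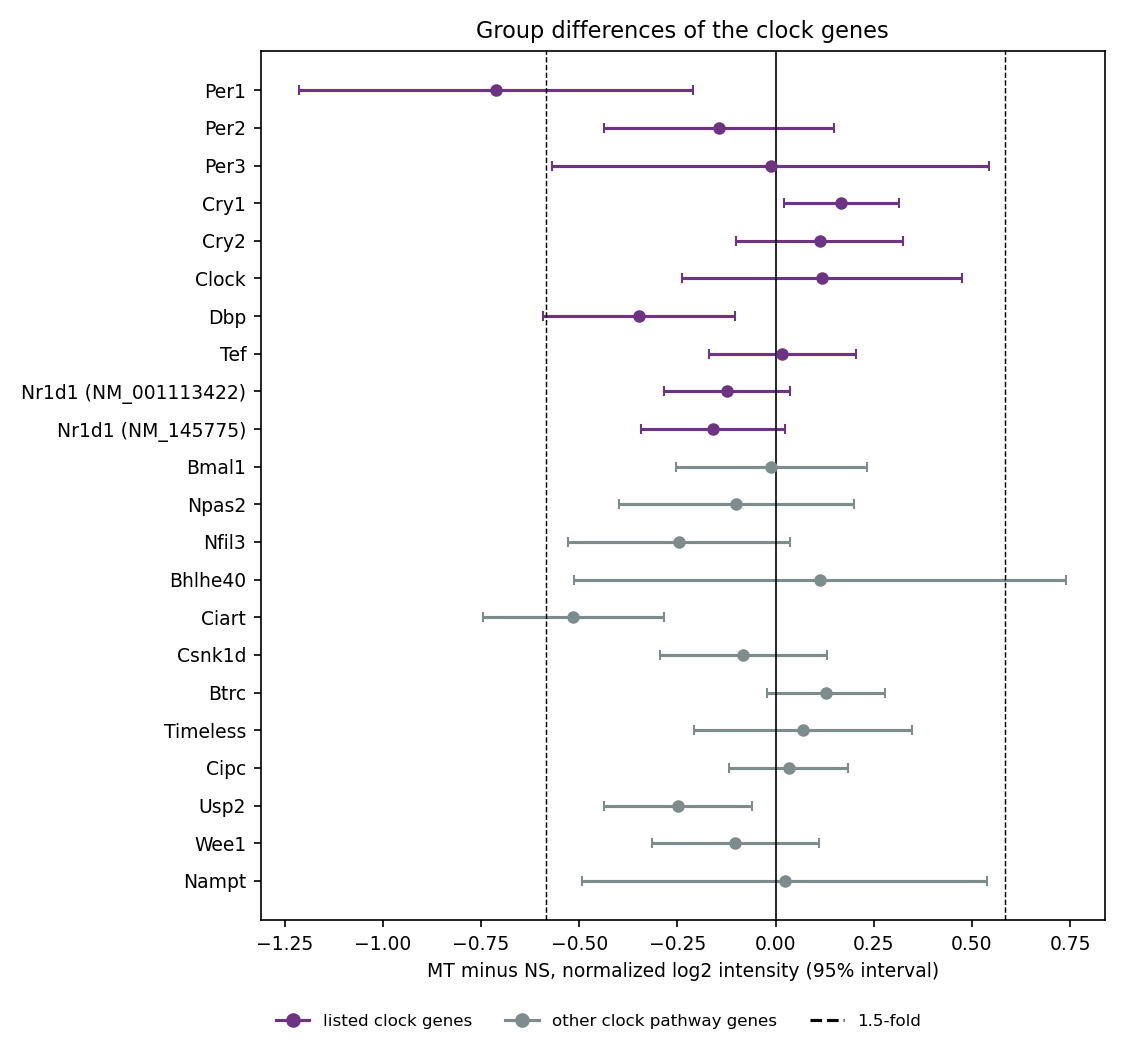
Difference between groups for each clock probe (purple) and for 12 further genes of the clock pathway (grey), as MT minus NS on the normalized log2 scale with the 95% interval of the limma fit; dashed lines mark 1.5-fold. Per1 at -0.71 is the only point beyond a dashed line, the intervals of Per1, Dbp, Cry1, Ciart and Usp2 leave out 0, and Csnk1e, which has no value on 1 array and an interval of -1.04 to 2.10, is not drawn.

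CLOCK is the activator that pairs with BMAL1, and its mRNA was close to the detection limit. Its probe read 4.81, 4.82, 5.35, 4.61 and 4.67 in MT rats 1 to 5 and 4.64, 4.66, 5.08, 4.44 and 4.85 in NS rats 6 to 10. It was not well above background in NS rat 9, and MT rat 3 stood 0.53 above the next MT rat. The groups overlapped, and the difference of 0.12 (SE 0.16, 95% interval -0.24 to 0.47) had an adjusted p of 0.734 by limma. Without MT rat 3 the difference was -0.0047, without batch 3 it was 0.14, within batch 2 it was 0.10, and with scaling by the 75th percentile in place of quantiles it was 0.47.

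Bmal1, the partner of CLOCK and the target of REV-ERBα, lay between 10.75 and 11.06 in MT rats (median 10.96) and between 10.69 and 11.23 in NS rats (median 10.95). The NS range enclosed the MT range, and the difference was -0.01 (SE 0.11, interval -0.25 to 0.23, limma adjusted p 0.969). It was above 0 without batch 3, at 0.12, and within batch 2, at 0.17. Npas2, which can take the place of CLOCK, lay between 10.10 and 10.38 in 4 MT rats and between 10.13 and 10.72 in 5 NS rats. Its spot in MT rat 4 was marked as an outlier by the scanner software and was left out. Its difference was -0.10 (SE 0.13, limma adjusted p 0.730), and it was -0.17 without batch 3 and -0.04 within batch 2.

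Per1, a repressor of the loop and a gene that responds quickly to light, cAMP and glucocorticoids, showed the widest difference. Its probe read 7.98, 7.44, 8.38, 7.44 and 7.62 in MT rats 1 to 5 and 8.02, 8.34, 8.74, 8.96 and 8.36 in NS rats 6 to 10. Of the MT rats 4 lay below every NS rat, and MT rat 3 lay inside the NS range. The difference of -0.71 (SE 0.22, interval -1.21 to -0.21) is a 1.64-fold lower mean in MT, with P = 0.0101 and an adjusted p of 0.183 by limma and an exact two-sided permutation p of 0.0397. The difference was wider than that of 96.5% of mRNAs, and the spread of Per1 within groups was wider than that of 80.3% of mRNAs.

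The size of that difference changed with the rats included. The 2 NS rats of batch 3 had the highest Per1 of all (8.74 and 8.96), and without them the difference was -0.47 and its adjusted p by limma 0.306 (0.128 to 1.00 over 20 alternative settings), so that Per1 no longer met the criteria of the study. Batch 3 holds only these rats, so batch and rat cannot be told apart. Within batch 2, MT rat 2 read 7.44 against 8.02 to 8.36 in NS rats 6, 7 and 10, a difference of -0.80 that rests on 1 MT rat. Without MT rat 3 the difference was -0.86.

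Per2, a repressor of the same family, read 10.08, 10.27, 9.68, 10.34 and 10.30 in MT rats and 10.23, 10.06, 10.34, 10.40 and 10.37 in NS rats. MT rat 3 was the lowest of the 10 rats and the other 4 MT rats lay within the NS range. The difference was -0.14 (SE 0.13, interval -0.44 to 0.15) with a limma adjusted p of 0.608, and it was -0.08 without batch 3 and 0.05 within batch 2.

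Per3, the third member of the family, read 8.15, 8.56, 7.98, 7.94 and 7.82 in MT rats and 8.35, 8.58, 7.44, 7.61 and 8.53 in NS rats. The NS rats fell on either side of most of the MT rats, with rats 6, 7 and 10 at 8.35 or above and rats 8 and 9 at 7.61 or below. These are the rats of batches 2 and 3, with NS means of 8.49 and 7.52, and the mean of batch 1 was 7.97. MT rat 2, the MT rat of batch 2, read 8.56 and so lay among the NS rats of its batch. The group difference was -0.01 (SE 0.25, interval -0.57 to 0.54, limma adjusted p 0.985). Without the 2 rats of batch 3 it was -0.40 (SE 0.16, limma adjusted p 0.252, and 0.252 to 1.00 over 20 alternative settings), with an unadjusted P below 0.05, and within batch 2 it was 0.07. In that comparison the lower values are those of the 4 MT rats of batch 1, which holds no NS rat. The part of the scan batch in the spread of Per3 was not tested.

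**Figure D2:**
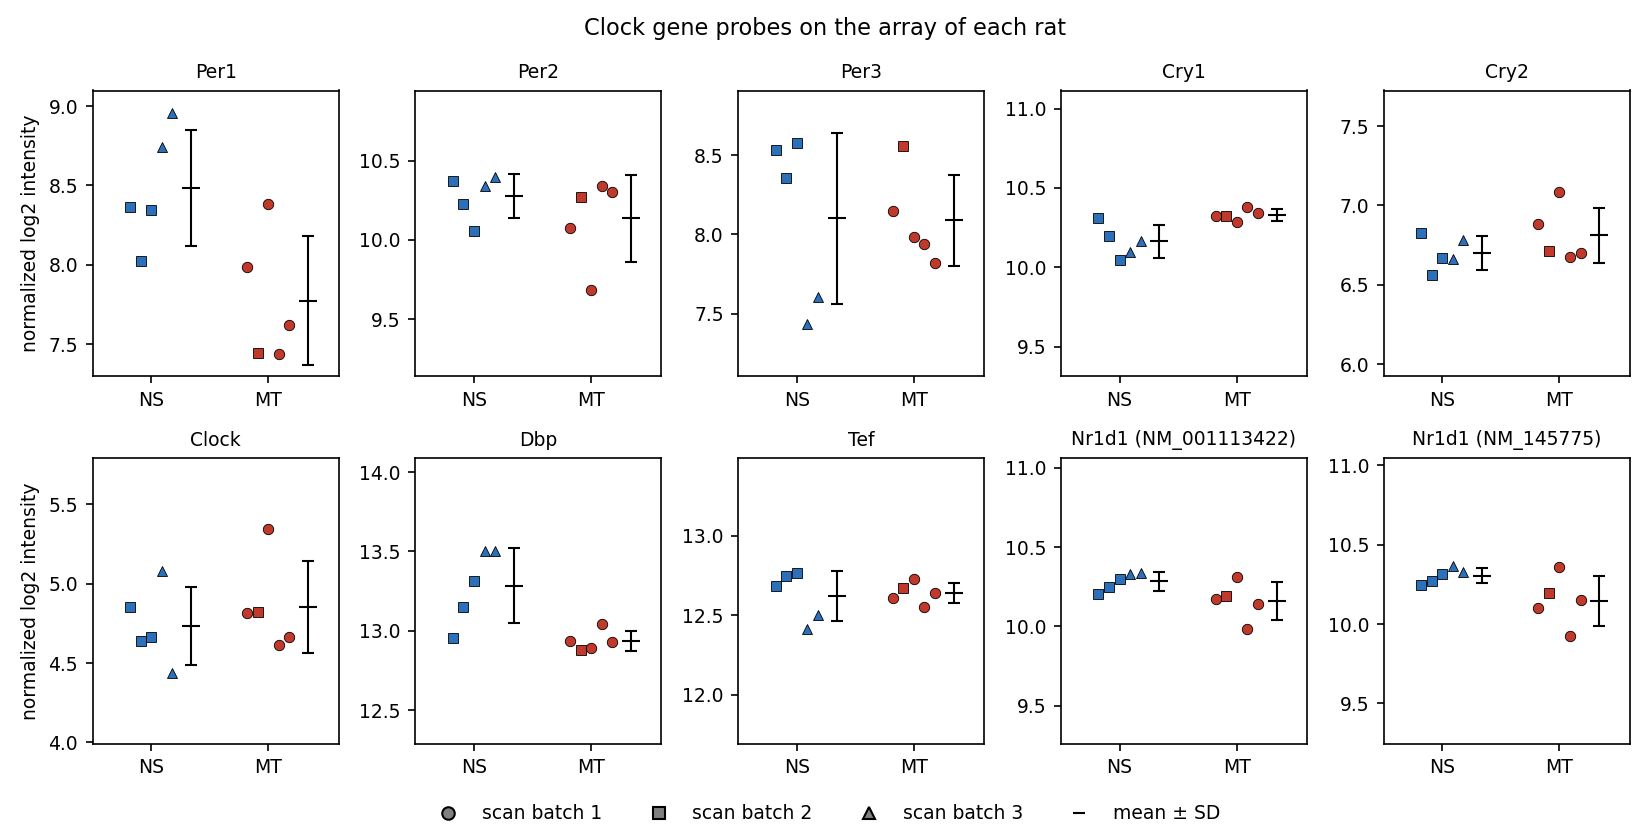
Normalized log2 intensity of each of the 10 clock probes on the array of each rat, NS in blue and MT in red, with the mean and SD of 5 rats beside each group and the marker shape giving the scan batch; every panel spans the same log2 range around its own centre, so the spread but not the level can be compared between panels. For Per1 4 of 5 MT rats lie below every NS rat, for Per3 the NS rats of batch 3 (triangles) lie at 7.44 and 7.61, below every other rat, and the Clock value of NS rat 9 (4.44) was not well above background.

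Cry1 encodes the strongest repressor of the CLOCK and BMAL1 pair, and its mRNA peaks later than that of the Per genes. The probe read 10.32, 10.32, 10.28, 10.38 and 10.34 in MT rats and 10.19, 10.04, 10.10, 10.16 and 10.31 in NS rats. The MT rats lay within 0.10 of each other, 4 of them above every NS rat, and NS rat 10 was the only NS rat inside the MT range. The difference of 0.17 (SE 0.07, interval 0.02 to 0.31) had P = 0.0286 and an adjusted p of 0.259 by limma, and an exact two-sided permutation p of 0.0159. It was 0.15 without batch 3 and 0.14 within batch 2. Its P was not below 0.05 by limma without batch 3, nor when MT rat 1, 4 or 5 or NS rat 7 or 8 was left out, with differences of 0.14 to 0.17. In linear terms it is 1.12-fold.

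Cry2, the paralogue of Cry1, read 6.88, 6.71, 7.09, 6.67 and 6.70 in MT rats and 6.56, 6.67, 6.67, 6.78 and 6.83 in NS rats. MT rats 3 and 1 were the highest of all, and the other 3 MT rats lay inside the NS range. The difference was 0.11 (SE 0.10, interval -0.10 to 0.32) with a limma adjusted p of 0.578. It was 0.13 without batch 3, 0.03 within batch 2 and 0.25 with scaling by the 75th percentile.

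Nr1d1 encodes REV-ERBα, a nuclear receptor that represses Bmal1. Its probes NM_145775.2 and NM_001113422.1 read within 0.0723 of each other on every array. NM_145775.2 read 10.10, 10.19, 10.36, 9.93 and 10.15 in MT rats and 10.27, 10.32, 10.37, 10.33 and 10.24 in NS rats. By either probe 4 MT rats lay below every NS rat, and MT rat 3 lay inside the NS range, as it did for Per1. The differences were -0.16 (SE 0.08, interval -0.34 to 0.02, limma adjusted p 0.364) and -0.12 (SE 0.07, interval -0.28 to 0.04, limma adjusted p 0.420). The exact two-sided permutation p was 0.0476 for the first probe and 0.0635 for the second, and the differences were -0.13 and -0.09 without batch 3 and -0.08 and -0.06 within batch 2.

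Dbp encodes an output factor that binds D-boxes, and it is known for a wide daily swing in many tissues. The probe read 12.94, 12.88, 12.89, 13.04 and 12.93 in MT rats and 13.15, 13.32, 13.50, 13.50 and 12.95 in NS rats. The MT rats lay within 0.17 of each other with an SD of 0.06, and the NS rats spread over 0.55 with an SD of 0.24. Of the MT rats 4 lay below every NS rat, NS rat 10 lay among the MT rats, and NS rats 8 and 9 of batch 3 were the highest. The difference of -0.35 (SE 0.11, interval -0.59 to -0.10), a 1.27-fold lower mean in MT, had P = 0.0101 and an adjusted p of 0.183 by limma and an exact two-sided permutation p of 0.0159. It was -0.20 without batch 3, where its P was not below 0.05 by limma, -0.26 within batch 2 and -0.43 without NS rat 10.

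Tef encodes a related D-box factor. The probe read 12.61, 12.67, 12.73, 12.55 and 12.64 in MT rats and 12.74, 12.77, 12.41, 12.50 and 12.69 in NS rats. As for Per3, NS rats 8 and 9 of batch 3 were the lowest of all 10 (mean 12.46, against 12.73 for the NS rats of batch 2). For Dbp these rats were the highest. The NS rats of batch 2 had the same order in Tef as in Dbp. The Pearson r of Tef and Dbp was -0.54 over all rats (permutation p = 0.107, adjusted 0.362). It was 0.46 without NS rats 8 and 9 and 0.24 with batch means subtracted. The group difference of Tef was 0.02 (SE 0.08, interval -0.17 to 0.20, limma adjusted p 0.931), and it was -0.09 without batch 3 and -0.06 within batch 2.

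Of 22 further genes of the clock pathway, 13 had a probe here and all 13 were tested. None passed the adjusted threshold or the criteria of the study, 2 were lower at an unadjusted P below 0.05 and none was higher (beside 9.54% and 6.84% of all RNAs), 7 differences lay below 0 and 6 above, and their median was -0.01. The 2 lower genes were Ciart and Usp2. Ciart, also known as Chrono, encodes a repressor of the CLOCK and BMAL1 pair and is itself an E-box gene, and its promoter window with 3 E-boxes is shown above. It read 9.02, 8.95, 9.24, 8.96 and 8.90 in MT rats and 9.64, 9.41, 9.70, 9.63 and 9.27 in NS rats, so that the groups did not overlap, as for 3.29% of all RNAs as lower in MT. The highest MT rat, rat 3, lay 0.03 below the lowest NS rat, rat 10.

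The difference of Ciart was -0.51 (SE 0.10, interval -0.75 to -0.28), a 1.43-fold lower mean in MT. Its P was 0.000558 and its adjusted p 0.0863 by limma, and its exact two-sided permutation p was 0.00794, the smallest that the assignments of 10 rats to groups of 5 can give. It was -0.49 within batch 2 and -0.42 without batch 3, and it passed an adjusted p of 0.05 in 2 of 20 alternative settings (adjusted p 0.0466 to 1.00 over the 20). Usp2, a ubiquitin-specific protease with a daily rhythm, was named after its values were seen: it lay between 6.77 and 7.05 in MT rats (median 6.86) and between 7.01 and 7.34 in NS rats (median 7.11). Its difference was -0.25 (SE 0.08, interval -0.44 to -0.06, limma adjusted p 0.206), and it was -0.18 without batch 3 and -0.16 within batch 2.

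**Figure D3:**
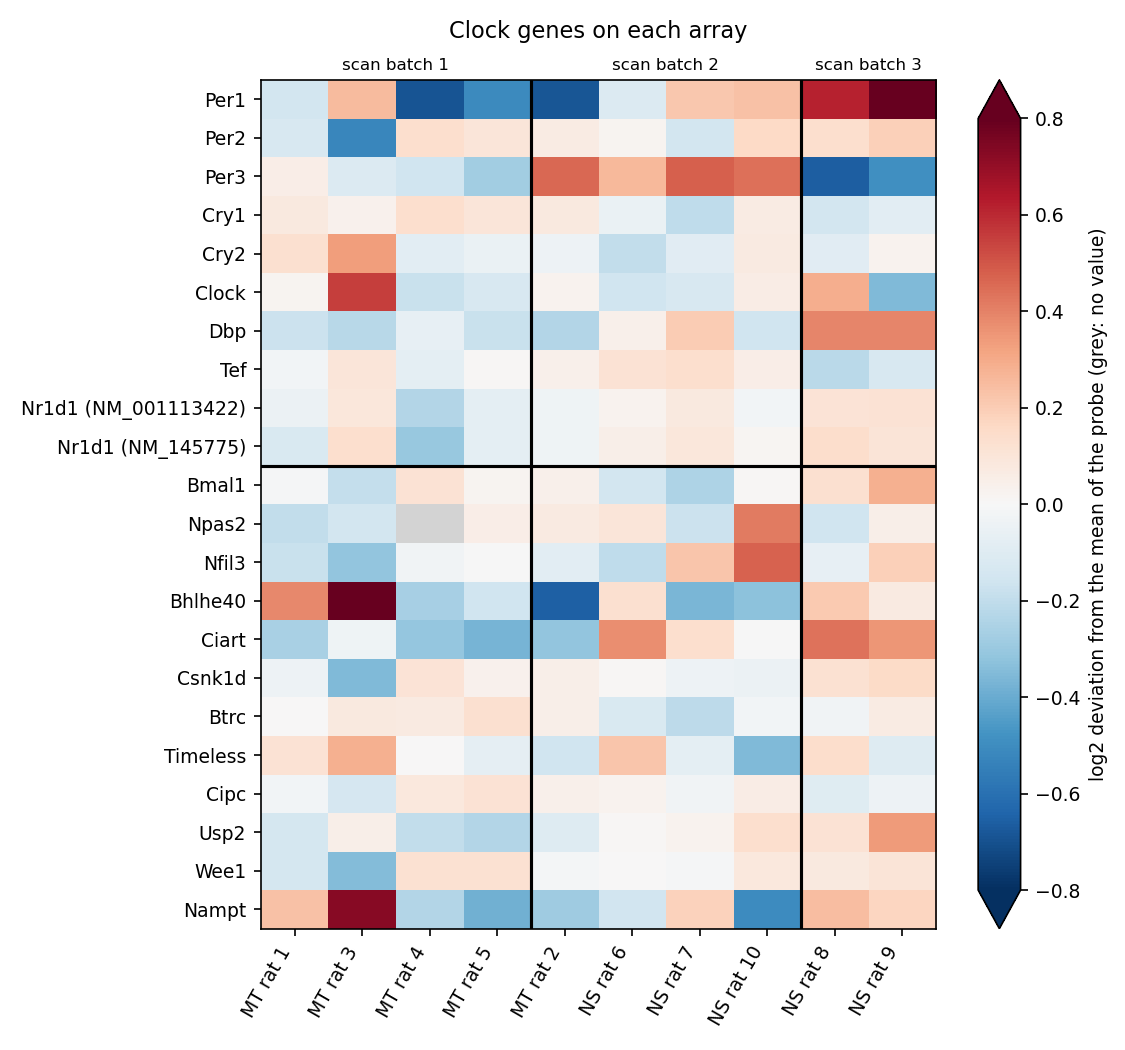
Deviation of each rat from the mean of the probe, on the log2 scale (red above the mean, blue below, grey no value), for the 10 clock probes above the horizontal line and 12 further pathway genes below it, with rats ordered by scan batch. Per1 and Dbp are reddest in NS rats 8 and 9, Per3 and Tef are bluest there, and MT rat 3 stands out in Clock, Per2, Bhlhe40 and Nampt.

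The clock genes differed in how far the 10 rats spread. The highest rat exceeded the lowest 2.86-fold in linear terms for Per1, 2.20-fold for Per3, 1.88-fold for Clock and 1.64-fold for Per2. For Dbp this ratio was 1.54-fold and for Cry2 1.44-fold. Nr1d1, Tef and Cry1 were tighter, at 1.36-fold and 1.28-fold for the Nr1d1 probes, 1.28-fold for Tef and 1.26-fold for Cry1. The spread of Cry1 within groups was wider than that of only 5.74% of mRNAs and that of Per3 was wider than that of 83.4%. For the dim Clock probe the spread includes the noise of low intensities.

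MT rat 3 was set apart from the other MT rats in several members. Of the MT rats it had the highest value for Per1, Cry2, Clock, Tef and both Nr1d1 probes, and the lowest for Per2 and Cry1. It also had the lowest Hoxd10 of all rats, with a deviation of -1.09. Its mean deviations of the motor neuron markers (-0.41) and dorsal root ganglion markers (-0.38) were the lowest of the MT rats, but not of all rats. Lower motor neuron means were found in NS rats 7 (-0.58) and 10 (-0.57), and a lower ganglion mean in NS rat 9 (-0.57). The other NS rats lay above MT rat 3 in each list. The part of the tissue taken in the values of MT rat 3 was not tested. Among the NS rats, rats 8 and 9 had the highest Per1, Dbp and Nr1d1 and the lowest Per3 and Tef, and rat 10 had the lowest Dbp and Nr1d1 and the highest Cry1 and Cry2.

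The genes that E-boxes and D-boxes drive (Per1, Per2, Per3, Nr1d1, Dbp and Tef) were averaged as deviations from the mean of each probe, and so were the genes known to peak at other phases (Bmal1, Npas2, Clock, Nfil3 and Cry1). The first mean counted both Nr1d1 probes, 7 probes in all. It lay between -0.20 and -0.04 in the 5 MT rats and between 0.06 and 0.15 in the 5 NS rats. The second lay between -0.06 and 0.03 in MT rats and between -0.11 and 0.20 in NS rats, so that it overlapped. The first minus the second was -0.03, -0.09, -0.03, -0.21 and -0.15 in MT rats 1 to 5 and 0.15, 0.26, 0.06, 0.13 and -0.10 in NS rats 6 to 10. NS rat 10 thus lay among the MT rats, and the other 4 NS rats lay above every MT rat. Per1 and Dbp, which have the widest differences of the listed genes, are both in the first mean, and no test was made of these means. The first mean was not computed without Per1, so how far its separation of the groups rests on that gene is not shown. None of the 7 probes separated the groups by itself, as 5.6% of all RNAs did.

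The 9 genes were compared in 36 pairs over the 10 rats, with the probes of Nr1d1 averaged. Of the 36 Pearson correlations 18 were above 0 and 18 below, 7 had an unadjusted permutation p below 0.05, and none passed 0.05 after Benjamini-Hochberg adjustment over the 36 pairs by Pearson or Spearman. The rats share group and scan batch, and the batches of 4, 4 and 2 arrays are too small for a correlation within each, so each r is also given after subtraction of the batch means. Per1 and Nr1d1 had the highest rho, with r = 0.81 (permutation p = 0.00273, adjusted 0.0592), rho = 0.88 (permutation p = 0.00153, adjusted 0.0551), r = 0.79 without MT rat 4 and NS rat 9 and r = 0.74 with batch means subtracted. Cry1 and Dbp had the lowest r, with r = -0.83 (permutation p = 0.00493, adjusted 0.0592), rho = -0.67 (permutation p = 0.0390, adjusted 0.281), r = -0.77 without NS rats 7 and 8 and r = -0.79 with batch means subtracted.

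Per3 and Tef had r = 0.82 (permutation p = 0.00364, adjusted 0.0592) and rho = 0.81 (permutation p = 0.00751, adjusted 0.0788) over all rats, and r = 0.65 without NS rats 7 and 8. With batch means subtracted r was 0.02, so this relation did not hold within scan batches. Tef and Nr1d1 showed the reverse, with r = 0.04 (permutation p = 0.914, adjusted 0.940) and rho = 0.05 (permutation p = 0.890, adjusted 0.947) over all rats, r = 0.94 without NS rats 8 and 9, the 2 arrays of batch 3, and r = 0.85 with batch means subtracted. Per1 and Dbp had the widest group differences of the listed clock genes. Their r was 0.72 (permutation p = 0.0208, adjusted 0.150) and their rho 0.55 (permutation p = 0.106, adjusted 0.544). The r was 0.66 without MT rat 4 and NS rat 9 and 0.23 with batch means subtracted.

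**Figure D4:**
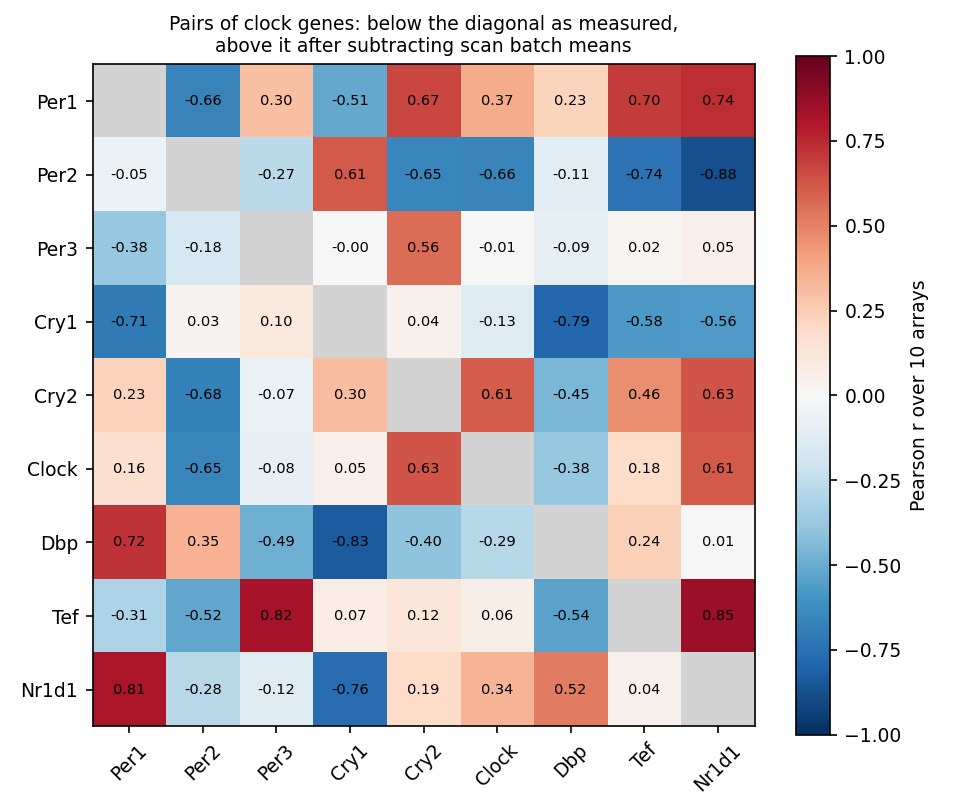
Pearson r of each pair of clock genes over the 10 arrays, below the diagonal as measured and above it after subtraction of the scan batch means; colour and number give r. Per1 and Nr1d1 (0.81 and 0.74) and Cry1 and Dbp (-0.83 and -0.79) keep their r above the diagonal, Per3 and Tef (0.82 and 0.02) do not, and Tef and Nr1d1 (0.04 and 0.85) show the reverse.

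Dbp varied with many genes outside the clock. Of 13340 mRNAs with a value on every array, the 5 most like Dbp by Pearson r over the 10 arrays were Tubgcp2 (0.98), Cyrib (0.98), Esf1 (0.98), Pepd (0.98) and Mob1a (0.97). The 5 most unlike it were NM_001109139.1 (-0.98), Magi2 (-0.97), Sdc3 (-0.97), Chrna6 (-0.97) and Pcdh8 (-0.96), and after subtraction of batch means Tubgcp2 remained at 0.95. Among the listed clock genes and the further pathway genes Ciart was the nearest to Dbp, at rank 818 (r = 0.82). Per1 followed at rank 1721 and Usp2 at rank 2272. After subtraction of batch means their r with Dbp was 0.53, 0.23 and -0.03. Cry1, at rank 13014, was near the opposite end. These arrays share group, scan batch and signal level, and the values of r are a description.

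Per1 is also a glucocorticoid-responsive gene, so the other genes of that kind were set beside it. Of 18 listed genes 16 were tested, and their mean deviation was 0.30, -0.33, 0.67, -0.35 and -0.27 in MT rats 1 to 5 and -0.34, 0.12, 0.01, 0.15 and 0.05 in NS rats 6 to 10. MT rats 3 and 1, which had the highest means of all rats, also had the highest Per1 of the MT group, and NS rat 6, with the lowest NS mean, had the lowest Per1 of the NS group. NS rats 7 to 10 did not keep this order. Their Per1 read 8.34, 8.74, 8.96 and 8.36 at list means of 0.12, 0.01, 0.15 and 0.05. MT rats 2, 4 and 5 read 7.44, 7.44 and 7.62 at list means of -0.35 to -0.27, and NS rat 6 read 8.02 at -0.34. The median difference of the list was 0.12, with 10 of 16 above 0, and 1 gene met the criteria of the study, as 2.73% of all RNAs did. This was Angptl4, a secreted inhibitor of lipoprotein lipase, which was higher in MT by 0.70 (SE 0.17, limma adjusted p 0.121). At an unadjusted P below 0.05 by limma 2 genes were higher and 2 lower, beside 6.84% and 9.54% of all RNAs. Of the lower genes Errfi1, named after its values were seen, separated the groups (-0.37, SE 0.07, limma adjusted p 0.0687). Angptl4 separated them too, as higher in MT. Of all RNAs 3.29% separated the groups as lower in MT and 2.31% as higher. The part of glucocorticoids in the values of Per1 was not tested.

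**Figure D5:**
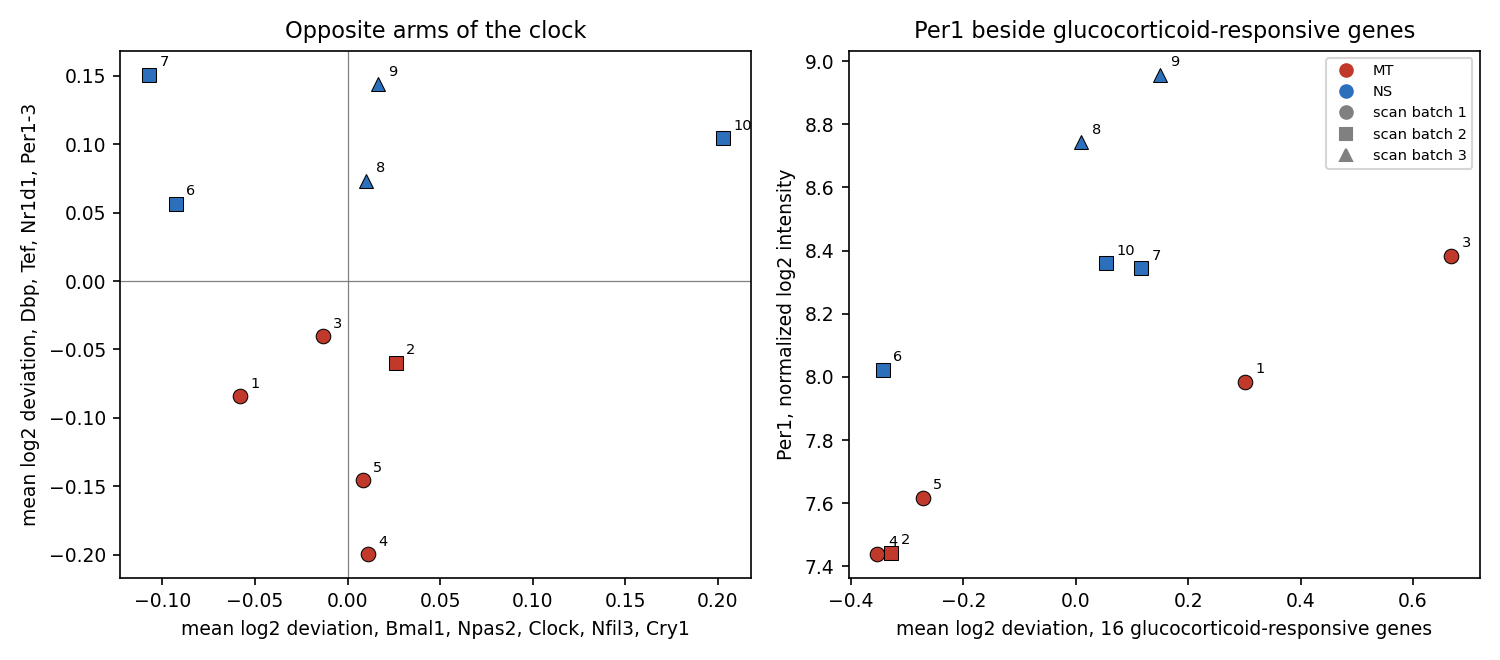
Left, for each rat, the mean log2 deviation of Per1, Per2, Per3, Nr1d1, Dbp and Tef against that of Bmal1, Npas2, Clock, Nfil3 and Cry1; right, Per1 (normalized log2 intensity) against the mean log2 deviation of 16 glucocorticoid-responsive genes, with numbers naming the rats, colour the group and shape the scan batch. On the left the MT rats lie between -0.20 and -0.04 on the vertical axis and the NS rats between 0.06 and 0.15, and on the right MT rats 1 and 3 have the highest Per1 of the MT group and the highest means of all rats. In NS rats 7 to 10 the order of Per1 does not follow that of the means. The mean on the left vertical axis counts both Nr1d1 probes and was not computed without Per1.

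Immediate early genes, which like Per1 respond within minutes to stimulation, mostly had differences above 0. Of 15 listed genes 14 were tested, 10 of them had a difference above 0 and their median was 0.22, and 5 met the criteria of the study as higher in MT and none as lower, beside 1.74% and 0.996% of all RNAs. The mean deviation of the list lay between 0.02 and 0.22 in MT rats and between -0.12 and 0.08 in NS rats 6 to 9, so that these overlapped, and NS rat 10 stood apart at -0.61. The 4 with the smallest P were Zfp36, which destabilizes cytokine mRNAs (difference 0.72, SE 0.14, limma adjusted p 0.0694), and the transcription factors Klf4 (0.74, SE 0.19, limma adjusted p 0.129), Atf3 (0.74, SE 0.21, limma adjusted p 0.151) and Fos (0.75, SE 0.26, limma adjusted p 0.211). None of the 14 passed the adjusted threshold.

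Markers of other cells were set beside the clock genes, and none of them passed the adjusted threshold. Of all RNAs 1.74% met the criteria of the study as higher in MT and 0.996% as lower. The mean deviation of the 4 neutrophil markers tested of 7 listed lay between 0.26 and 0.70 in MT rats and between -0.73 and -0.27 in NS rats, and 2 of the 4 met the criteria of the study as higher in MT. The 7 microglial markers, all above background on every array, all had lower means in MT, and 1 met the criteria. Their mean deviation was -0.45 to 0.07 in MT rats and -0.01 to 0.44 in NS rats. At an unadjusted P below 0.05 by limma 5 of the 7 were lower, beside 9.54% of all RNAs. The groups separated as lower in MT for 3 of the 7, beside 3.29% of all RNAs. Of the dorsal root ganglion markers 4 of 6 genes were tested as 6 RNAs, and 3 met the criteria as higher in MT. All 3 are transcripts of Calca, which encodes a neuropeptide and was named after its values were seen, with differences of 0.65, 0.62 and 0.72. The transcripts at 0.65 and 0.62 had similar means, 13.16 and 13.02 in MT rats and 12.51 and 12.40 in NS rats. The transcript at 0.72 was dim, with means of 3.60 in MT and 2.88 in NS rats. It was well above background on 5 arrays, the fewest that the filter allows. The other ganglion markers tested did not meet the criteria, with differences of 0.13 for Scn10a, -0.03 for P2rx3 and -0.42 for Scn11a. Scn10a and Scn11a were also dim, and were well above background on 8 and 6 arrays. The mean deviation of that list overlapped, from -0.38 to 0.41 in MT rats and from -0.57 to 0.45 in NS rats. Neuronal and oligodendrocyte markers overlapped, from -0.06 to 0.11 against -0.20 to 0.06 and from -0.11 to 0.02 against -0.12 to 0.14. The part of these cells in the differences of Per1, Dbp, Cry1 and Ciart was not tested.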

How the data were processed

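Total RNA of the lumbar enlargement of 5 MT and 5 NS rats was hybridized by the authors to 1 one-colour array per rat. The authors extracted the spots with Agilent Feature Extraction 11.0.1.1 and deposited the background-subtracted intensity of each of 42136 spots on a linear scale with outlier and background flags. The authors also deposited a table of quantile-normalized log2 values made with GeneSpring GX (24529 entries, 24484 matched to a probe), used here as an alternative. Rats were grouped by their GEO titles, and scan batches are arrays that share a scan time.

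Intensities were floored at 1 (lowest 1.71), taken to log2 and brought to the same quantiles with limma 3.58.1 (R 4.3.3). Values were averaged over the spots of a probe other than outlier spots, then over the probes of an accession. RNAs with more than 50% of their spots well above background on at least 5 arrays were kept (20286, of which 20283 had enough values to test). RefSeq named 14274 of 15323 mRNA probes. Positions of the probes were not used, since the arrays were designed on an older genome build, and the promoter windows are those of RefSeq on GRCr8.

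MT was compared with NS by lmFit and eBayes without covariates, p-values were adjusted by Benjamini-Hochberg over all RNAs, and single genes also by an exact permutation test (two-sided) of the difference in means. The criteria of the study were read as a linear fold above 1.5. Correlations used 100000 permutations in Python 3.11.15, and 36 pairs were possible because Nr1d2 had no value. A simulation of 20221 RNAs in groups of the same size drew the noise of each array independently, and 200 RNAs were changed by a log2 fold of 1. The adjusted threshold recovered 133 with 5 false calls and the criteria of the study 185 with 211. No effect of scan batch was simulated, so these counts do not cover the batches of the real arrays. The simulated fold was also larger than any clock gene difference in the main comparison (widest -0.71, Per1). The counts therefore do not give the recovery of differences of that size. The number of arrays limits the precision.

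The named genes were the 10 members, Bmal1, Npas2, other pathway genes past a call rule or with separate groups, the 5 mRNAs nearest to and farthest from Dbp, and up to 4 called genes of the glucocorticoid and immediate early lists. The members and lists were chosen with earlier results of these data known. Results were recomputed with 75th percentile scaling, normexp background correction with an offset of 50 (on median signals, since the mean signals planned for it were not used here), the deposited table, no filter or a filter on all 10 arrays, the methods' Student test, the scan batch as a fixed or random block, leaving out batch 3 or each rat in turn, single probes, and values within batch 2, the last chosen after seeing the data. The authors' behavioural and RT-qPCR data were not used here. No array was left out of the main comparison.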

Additional observations from a re-analysis of the deposited data

Results flagged for a closer look

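Among 28 sets of 5 values (4 for Npas2 in MT rats) tested for a far value, 1 was flagged: Clock in MT rat 3, at 5.35 on the log2 scale, with the other 4 MT rats between 4.61 and 4.82. The gap to the nearest rat was 0.72 of the whole range of the group, against a critical value of 0.71 for 5 samples, and chance flags about 1 in 20 such sets. Clock was the dimmest of the 10 probes relative to background, since it was the only one not well above background on every array. Without MT rat 3 the group difference of Clock was -0.0047 in place of 0.12.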

How the results depend on the processing

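Over 20 alternative settings Per1, Dbp, Ciart, Cry1, Cry2, Usp2 and both Nr1d1 probes kept the direction of their difference. Per1 ranged from -0.86 to -0.47 (limma adjusted p 0.128 to 1.00) and met the criteria of the study in 18 of the 20, Dbp ranged from -0.43 to -0.20 (adjusted p 0.0730 to 1.00), Cry1 from 0.14 to 0.21 and Ciart from -0.58 to -0.42. None of the listed clock genes passed the adjusted threshold in any setting. An unadjusted P below 0.05 by limma was held by Per1, Dbp and Cry1, but by Per3 alone without batch 3, by Per1 alone with the fixed block, by Per1 and Dbp with the random block, by Per1, Dbp and the Nr1d1 probe NM_145775.2 with 75th percentile scaling, and by both Nr1d1 probes as well without MT rat 3. Cry1 also lost it when MT rat 1, 4 or 5 or NS rat 7 or 8 was left out (0.14 to 0.17). Per1 no longer met the criteria, which left 0 clock genes that did, under normexp (-0.54) and without scan batch 3 (-0.47). Ciart passed the adjusted threshold, as 1 pathway gene in place of 0, under normexp and with the filter on all 10 arrays. Leaving out each rat in turn gave Per1 between -0.86 and -0.59, Dbp between -0.43 and -0.29 and Ciart between -0.58 and -0.47, with 1 clock gene meeting the criteria and 0 passing the adjusted threshold each time, and 0 pathway genes by either rule. No paired analysis was possible because the groups share no rat numbers.

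The genes near 0 changed sign, and the cause was not tested. Tef (0.02) was -0.037 with 75th percentile scaling, -0.060 with the batch as a fixed block and within batch 2, -0.0024 with a random block, -0.092 without batch 3, and -0.035 to 0.054 without each rat in turn (below 0 without MT rat 3, at -0.0037, NS rat 8, at -0.035, and NS rat 9, at -0.013). Per3 (-0.01) was 0.070 with that scaling, 0.068 with the fixed block and within batch 2, 0.087 with the random block, -0.40 without batch 3, and -0.18 to 0.11 without each rat in turn (0.014, 0.025 and 0.055 when MT rat 3, 4 or 5 was left out, and 0.050, 0.11 and 0.096 when NS rat 6, 7 or 10 was). Bmal1 (-0.01) was 0.17 with the fixed block and within batch 2, 0.055 with the random block, 0.12 without batch 3, and -0.074 to 0.060 without each rat in turn (above 0 without MT rat 3, at 0.036, NS rat 8, at 0.021, and NS rat 9, at 0.060). Per2 (-0.14) was 0.053 with the fixed block and within batch 2, Npas2 (-0.10) was 0.036 in the deposited table, and Clock (0.12) lay between -0.0047 and 0.21 without each rat in turn (-0.0047 without MT rat 3) and was 0.47 with 75th percentile scaling, where Cry2 was 0.25 in place of 0.11.

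Over all RNAs, 40 passed the adjusted threshold, and 143 did so with normexp, 66 in the deposited table, 12 with no filter, 120 with the filter on all arrays, 2 without batch 3 and 0 with the batch as a fixed or random block, where 838 and 1414 RNAs had an unadjusted P below 0.05 by limma. Without each rat in turn the count lay between 0 and 84, with 0 without MT rat 1 or NS rat 9. The criteria of the study were met by 554 RNAs, and by 200 with normexp, 911 with no filter, 348 with the filter on all arrays, 336 with the fixed block, 322 with the random block, and 425 to 866 without each rat in turn (866 without NS rat 10). The share of these called higher in MT was 63.5%, and it was 86.3% with 75th percentile scaling, 45.9% with no filter, 48.2% with the fixed block, 49.7% with the random block and 52.8% without batch 3. Of the 36 pairs 0 passed the adjusted threshold, and 6 did with 75th percentile scaling, 2 in the deposited table and 2 with batch means subtracted. With the fixed block the group difference comes from batch 2 alone, which holds 1 MT array. Signal over background limits Clock most of the clock genes.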
